A study of Mus musculus with 21 samples.

Results

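Tetraspanins are small membrane proteins that cross the membrane several times and gather partner proteins into membrane microdomains. The transcripts of 10 tetraspanin genes, Cd9, Cd37, Cd53, Cd63, Cd81, Cd82, Cd151, Tspan3, Tspan13 and Tspan33, were followed in sorted conventional dendritic cells (cDCs). They were taken by gene symbol from the 37734 genes of the files. Another 21 tetraspanin genes of the files are described more briefly for comparison. The cells of all groups came from C57BL/6 mice aged 6 to 8 weeks, for which the labels name no transgene, deletion or treatment. The groups were immature splenic cDC1 (labelled SP1Minus), immature thymic cDC1 (TH1Minus), mature thymic cDC1 (TH1Plus), immature splenic cDC2 (SP2Minus), immature thymic cDC2 (TH2Minus) and mature thymic cDC2 (TH2Plus). After selection on CD11c beads, cDC1 were sorted as CD24+ CD11b- cells and cDC2 as CD24- CD11b+ cells. Both gates left out B220+ cells, and for cDC1 the labels also name the exclusion of F4/80, Ly6g, Ly6c and DX5. Mature cells were positive and immature cells negative for both CCR7 and Esam. Thymuses or spleens of several mice were pooled for a sort, so that each value is a mean over animals.

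The 21 libraries gave 20 samples, with 4 of splenic cDC1, 4 of immature thymic cDC1 and 3 of each other group. Splenic cDC1 replicates 4 and 5 carried the same labels, differed less than every other pair of their group (chi-square per degree of freedom 2.44, where their other pairs had 25 to 176), and were counted as 1 sample. The depth was between 14266867 and 40119669 reads per library, and all mature libraries were sequenced in lane 8, whereas each immature group was spread over lanes 5 and 8. The summed subset markers went with the labels. The summed cDC1 markers were between 42610 and 102081 in cDC1 samples and between 2909 and 24279 in cDC2 samples. The summed cDC2 markers were between 325 and 3605 in cDC1 samples and between 13915 and 46198 in cDC2 samples. Single markers were less even in mature cells. Mature cDC1 and cDC2 had means of 34273 and 13787 for Irf8 and 440 and 18.9 for Xcr1, but 4998 and 4532 for Batf3 and 12.7 and 31.5 for Tlr3. Sirpa had 392 and 7413, but Itgam 0 and 20.4 and Clec4a4 0.533 and 3.32. The summed markers of mature DCs were between 348380 and 519843 in mature and between 2584 and 30577 in immature samples. The values are normalized read counts, that is, the reads of a gene divided by 1 size factor per library. Because RNA of whole sorted fractions was measured, fewer cells that express a gene and less RNA of that gene per cell cannot be told apart. The labels do not say that the replicates were separate sorts, and p-values measure the spread between these samples.

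By background knowledge, CD63 resides mainly in late endosomes, lysosomes and the vesicles released from them, where MHC class II molecules are loaded. CD37 and CD53 are largely restricted to leukocytes. CD9, CD81, CD82 and CD151 act at the cell surface, where they bind integrins and immunoglobulin superfamily proteins and influence adhesion, migration and cell fusion. TSPAN33 belongs to the TspanC8 subfamily, which escorts the protease ADAM10 to the surface. TSPAN3 and TSPAN13 are less well characterized.

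The promoters of the 3 genes, among the 10, with the largest differences between maturation states are shown first. Whether the differences arise at these windows was not tested. The Cd63 and Tspan3 windows lie inside the gene spans given below, downstream of the 5′ ends at 128900989 and 56165477. Each runs 5′ to 3′ on the strand of the gene from 250 bases before to 50 bases after the RefSeq start site in GRCm38, the build of mm10. Capitals mark letters that match the PU.1 motif (GAGGAAGT) or the CCAAT box (CCAAT), each searched together with the GC box (GGGCGG) on both strands.
Cd63, chr10:128909095-128909394, plus strand: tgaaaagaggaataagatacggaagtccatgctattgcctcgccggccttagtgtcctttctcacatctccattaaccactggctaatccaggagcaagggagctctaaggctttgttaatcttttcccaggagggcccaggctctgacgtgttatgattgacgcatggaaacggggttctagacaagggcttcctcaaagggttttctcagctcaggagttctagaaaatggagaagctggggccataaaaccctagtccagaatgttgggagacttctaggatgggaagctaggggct
Tspan3, chr9:56161021-56161320, minus strand: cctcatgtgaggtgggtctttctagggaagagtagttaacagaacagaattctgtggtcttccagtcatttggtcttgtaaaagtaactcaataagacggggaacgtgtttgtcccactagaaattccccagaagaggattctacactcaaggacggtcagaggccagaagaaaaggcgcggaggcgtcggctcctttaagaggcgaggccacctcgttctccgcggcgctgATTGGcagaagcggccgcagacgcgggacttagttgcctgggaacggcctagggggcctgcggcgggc
Cd53, chr3:106790100-106790399, minus strand: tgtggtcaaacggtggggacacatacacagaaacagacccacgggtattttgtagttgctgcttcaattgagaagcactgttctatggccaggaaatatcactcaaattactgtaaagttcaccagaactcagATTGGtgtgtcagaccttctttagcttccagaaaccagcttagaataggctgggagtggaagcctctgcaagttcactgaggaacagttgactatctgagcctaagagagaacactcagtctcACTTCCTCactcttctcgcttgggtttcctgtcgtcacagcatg
Among 32841 RefSeq promoters of this length, 3.2% held the PU.1 letters, 37.4% the CCAAT box and 35.7% the GC box. The Cd53 window held the PU.1 letters at position 7 and a CCAAT box at position -117 relative to the start site. In the Tspan3 window the CCAAT box was at position -18. The Cd63 window held none of these letters. The windows also differed in base composition, with 19 CpG dinucleotides in that of Tspan3, 6 in that of Cd63 and 4 in that of Cd53, against a median of 7 over all promoters. Of the 14 RefSeq promoters of the 10 genes, 1 of Cd37 and 1 of Cd82 held the PU.1 letters as well. A match is a description of the letters and not of a bound site.

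To determine how the 10 genes varied with maturation, tissue and subset, the 20 samples were fitted together with limma over 14970 genes that reached 10 in 3 or more samples. All 10 genes passed this filter. A gene was called when it differed by more than 2-fold with an adjusted p (Benjamini-Hochberg) under 0.1, and fold changes are on the log2(value + 1) scale unless they are called ratios of means.

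In mature against immature thymic cDC1, 4 of the 10 tetraspanins were higher (Cd63, Tspan3, Cd81 and Cd151) and 3 were lower (Cd53, Cd9 and Cd82). Over all genes tested, 21.3% were higher and 24.5% lower. In mature against immature thymic cDC2, 4 were higher (Tspan3, Cd63, Cd81 and Tspan33) and 2 lower (Cd53 and Cd9), against 18.6% higher and 17% lower over all genes. The median log2 fold change of the 10 genes was -0.33 in cDC1 and 0.33 in cDC2, beside -0.04 and 0.04 over all genes. When only lane 8 libraries were used, the log2 fold changes of the tetraspanins moved by at most 0.22 in cDC1 and 0.15 in cDC2.

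In thymic against splenic immature cDC1, 1 tetraspanin was higher (Cd63) and 2 were lower (Cd81 and Tspan13), where 4.26% of all genes were higher and 4.52% lower. In immature cDC2, 3 were higher in the thymus (Cd63, Cd9 and Cd151) and 3 lower (Tspan13, Cd81 and Cd37), against 8.3% and 5.87% of all genes. In lane 8 alone the log2 fold changes moved by up to 0.29 in cDC1 and 0.51 in cDC2.

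Between cDC2 and cDC1 of the spleen, Cd63 was higher and Cd81 and Cd9 were lower in cDC2, 1 and 2 genes against 9.93% and 6.7% of all genes. In immature thymic cells, 2 were higher (Cd63 and Tspan3) and 3 lower in cDC2 (Cd81, Tspan33 and Cd37), against 11% and 5.42%. In mature thymic cells, 1 was higher (Cd53) and 1 lower in cDC2 (Cd81), against 14.6% and 4.36%. Restriction to lane 8 moved the log2 fold changes by up to 0.61 in the spleen, where 1 cDC2 library remained, and by up to 0.31 in the immature thymic cells.

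The maturation effects themselves differed between the subsets for 5 tetraspanins. The effect was larger or more positive in cDC2 for 3 (Cd53, Tspan33 and Cd37) and lower in cDC2 for 2 (Cd63 and Tspan3), against 8.34% and 5.25% of all genes. The tissue effect differed for 2, being higher in cDC2 for Cd9 and lower for Cd37, against 3.27% and 1.71%. Of the 90 combinations of gene and comparison, 39 were called. Over all genes, the share called in 1 direction of a comparison was between 1.71% and 24.5%. On recovered reads, the quasi-likelihood test of edgeR called the same 39, and the DESeq2 Wald test called these and 1 other.

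**Figure D1:**
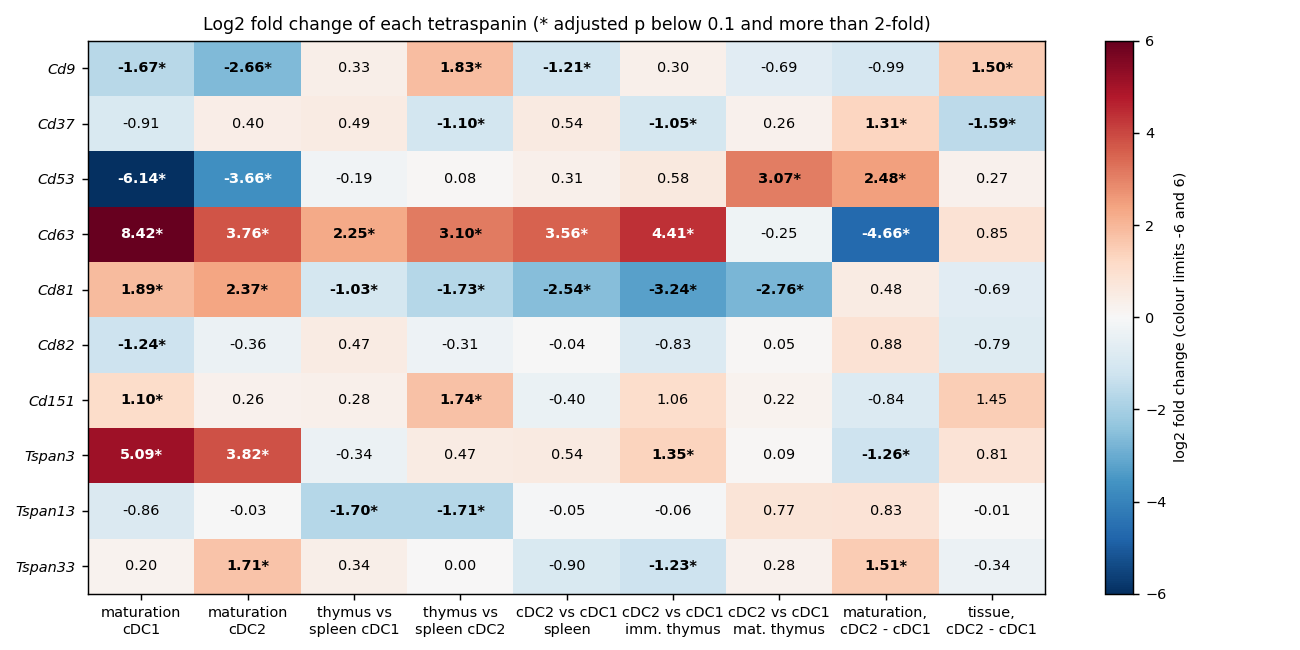
Log2 fold change of each tetraspanin (rows) in each comparison (columns), with colour from blue (lower) to red (higher) limited at -6 and 6. Bold values with an asterisk passed the adjusted p of 0.1 and the 2-fold threshold, as did Cd63 with 8.42 and Cd53 with -6.14 in the maturation of thymic cDC1.

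The endosomal tetraspanin Cd63 (ENSMUSG00000025351, chromosome 10 from 128900989 to 128912822 in mm10) covered the widest range of levels. Splenic cDC1 had normalized read counts of 12.4, 7.89, 11.1 and 13.3, and immature thymic cDC1 had 34.6, 56.6, 85.8 and 57.6. Mature thymic cDC1 had 18928, 17727 and 21963. Every mature sample thus lay above every immature sample, and the ratio of the means was 333 (log2 fold change 8.42, standard error 0.26, limma adjusted p = 9.81e-16). In cDC2 the counts were 170, 102 and 156 in the spleen, 1350, 890 and 1450 in the immature thymus and 16703, 17998 and 14442 in the mature thymus. The ratio of mature to immature thymic cDC2 was 13.3 (log2 fold change 3.76, standard error 0.28, limma adjusted p = 1.10e-09).

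From lowest to highest, the order of Cd63 levels was splenic cDC1, immature thymic cDC1, splenic cDC2, immature thymic cDC2 and the mature cells, with no overlap between neighbours except the mature groups. Its mean was 5.26 times higher in thymic than in splenic immature cDC1 (log2 fold change 2.25, standard error 0.24, limma adjusted p = 1.19e-06) and 8.60 times higher in thymic than in splenic immature cDC2 (log2 fold change 3.10, standard error 0.28, limma adjusted p = 1.06e-07). The splenic cDC1 values rest on 8 to 39 reads per sample. The mature groups overlapped, and their log2 difference of -0.25 had a 95% interval from -0.84 to 0.33. The maturation effects, cDC2 minus cDC1, differed by -4.66 on the log2 scale (standard error 0.38, limma adjusted p = 1.24e-07).

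Transcripts of the mature state were also present in the immature thymic cDC2 fraction, and they are set beside Cd63 as measured. The mean of immature thymic cDC2 was 7.51% of that of mature thymic cDC2 for Cd63, 3.42% for the sorting marker Ccr7, 2.59% for the actin-bundling gene Fscn1 and 8.11% for the chemokine gene Ccl22. For Esam, the other sorting marker, it was 0.814%, and for Cd80, the remaining marker of mature DCs, it was 58.2%. In cDC1 these shares were 0.300% for Cd63, 0.648% for Ccr7, 0.207% for Fscn1, 1.2% for Ccl22, 1.95% for Esam and 22.5% for Cd80. Their part in the level of Cd63 was not tested.

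A processed copy, Cd63-ps, was listed with means of 627 in mature cDC1 and 303 in mature cDC2 of the thymus and at most 49.8 in any immature sample. Reads of near-identical copies can be split between them by the counting, so that the values of Cd63-ps are uncertain.

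Tspan3 (ENSMUSG00000032324, chromosome 9 from 56131725 to 56165477) behaved like Cd63 upon maturation but not across tissues. The counts were 487, 560, 490 and 425 in immature and 14968, 15157 and 20202 in mature thymic cDC1. In cDC2 they were 1207, 1197 and 1344 in immature and 19213, 16928 and 16954 in mature thymic cells. Mature and immature samples were far apart in both subsets, with ratios of means of 34.2 in cDC1 (log2 fold change 5.09, standard error 0.15, limma adjusted p = 6.15e-16) and 14.2 in cDC2 (log2 fold change 3.82, standard error 0.16, limma adjusted p = 4.85e-13). The effects, cDC2 minus cDC1, differed by -1.26 on the log2 scale (limma adjusted p = 7.59e-04).

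Among immature cells, Tspan3 had 622 ± 90.6 (SD, n = 4) in splenic cDC1 and 910 ± 172 (SD, n = 3) in splenic cDC2. The difference between thymus and spleen stayed below 2-fold, with a log2 value of -0.34 in cDC1 (95% interval from -0.63 to -0.04) and 0.47 in cDC2 (95% interval from 0.13 to 0.81). Immature thymic cDC2 exceeded immature thymic cDC1 by 1.35 on the log2 scale (standard error 0.15, limma adjusted p = 9.92e-07). In the mature cells the subsets differed by 0.09, with a 95% interval from -0.25 to 0.43.

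**Figure D2:**
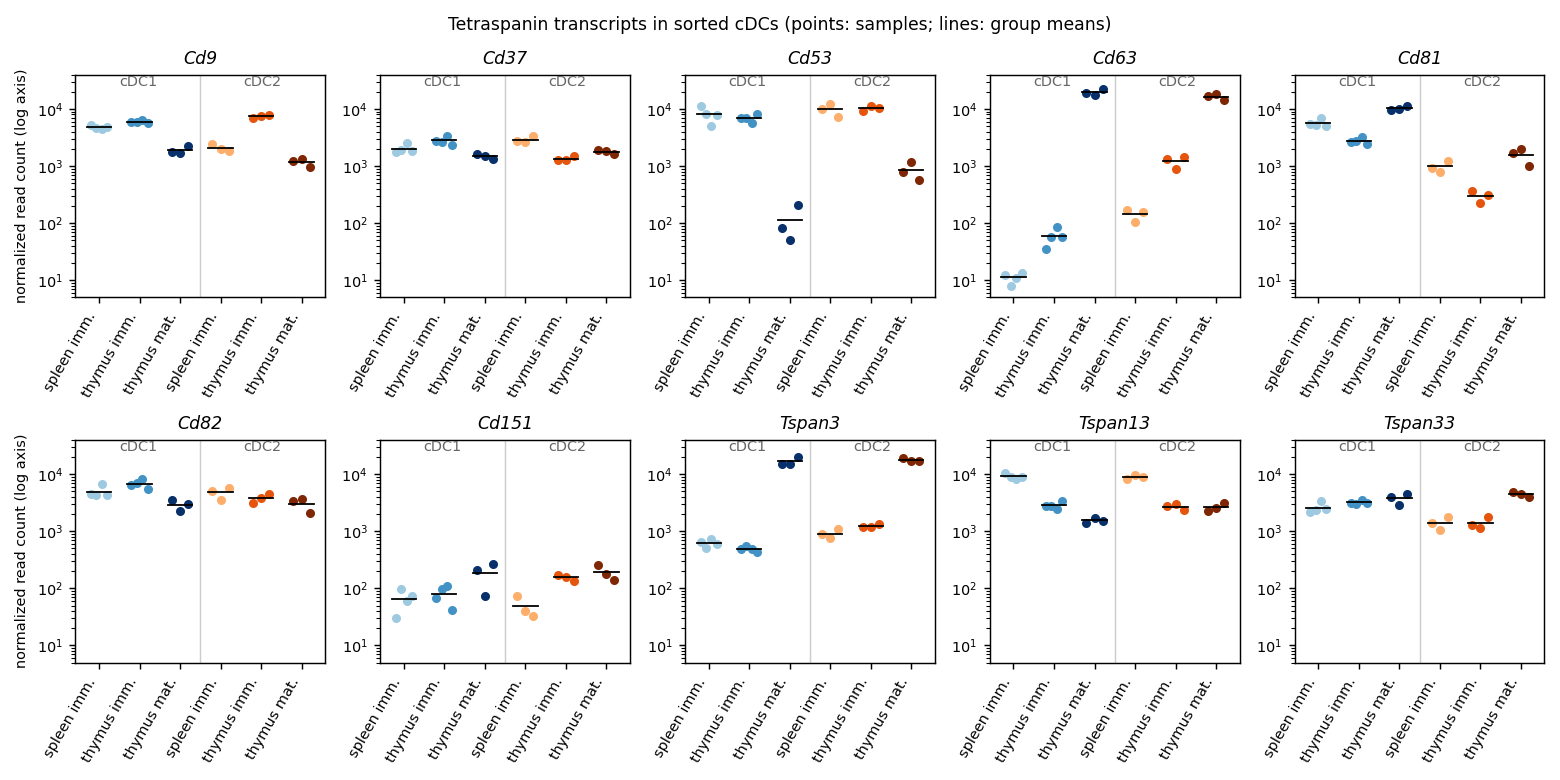
Normalized read count (log axis) of each tetraspanin in the 20 samples (points) of the 6 groups, with lines at the group means and cDC1 to the left of cDC2. Cd63 and Tspan3 sit at 14442 or more in every mature sample, whereas Cd53 is at least 5096 in every immature sample and at most 1181 in every mature one.

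Of the leukocyte-restricted genes, Cd53 (ENSMUSG00000040747, chromosome 3 from 106759921 to 106790149) had the largest fall upon maturation. The counts were 6964, 6815, 5611 and 7992 in immature and 81.1, 50.3 and 209 in mature thymic cDC1. In cDC2 they were 9080, 11374 and 10193 in immature and 788, 1181 and 557 in mature thymic cells. The mature samples were thus well below the immature ones in both subsets, by a ratio of means of 60.2 in cDC1 (log2 fold change -6.14, standard error 0.35, limma adjusted p = 7.39e-12) and 12.1 in cDC2 (log2 fold change -3.66, standard error 0.37, limma adjusted p = 9.67e-08).

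Mature cDC2 kept more Cd53 transcripts than mature cDC1, 842 ± 315 (SD, n = 3) against 114 ± 84.4 (SD, n = 3), without overlap (log2 fold change 3.07, standard error 0.37, limma adjusted p = 5.37e-06). The mature cDC1 values rest on 29 to 262 reads. The fall was less deep in cDC2 by 2.48 on the log2 scale (standard error 0.51, limma adjusted p = 0.00278). Splenic levels were 11422, 7997, 5096 and 7729 in cDC1 and 10142, 11982 and 7354 in cDC2, which overlapped with those of the immature thymic cells of the same subset. The tissue differences of -0.19 in cDC1 and 0.08 in cDC2 had 95% intervals from -0.87 to 0.49 and from -0.70 to 0.86.

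Cd37 (ENSMUSG00000030798, chromosome 7 from 45233632 to 45239115) varied within a narrow range and in opposite directions in the subsets. In cDC1 it was 1734, 1936, 2556 and 1805 in the spleen, 2792, 2673, 3406 and 2358 in the immature thymus and 1650, 1473 and 1331 in the mature thymus. In cDC2 it was 2708, 2660 and 3305 in the spleen, 1273, 1256 and 1509 in the immature thymus and 1879, 1802 and 1636 in the mature thymus. Thymic cDC2 thus lay below splenic cDC2 without overlap, by a ratio of 2.15 (log2 fold change -1.10, standard error 0.16, limma adjusted p = 4.94e-05).

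In cDC1 the tissue difference of Cd37 had the other sign, 0.49 on the log2 scale with overlapping samples, and the tissue effects differed by -1.59 (standard error 0.22, limma adjusted p = 9.80e-05). Upon maturation the log2 difference was -0.91 in cDC1 and 0.40 in cDC2, both below 2-fold, with no overlap in either subset. These effects differed by 1.31 (standard error 0.22, limma adjusted p = 5.11e-04). In immature thymic cells Cd37 was lower in cDC2 (log2 fold change -1.05, limma adjusted p = 2.18e-05), a value close to the 2-fold threshold. Without thymic cDC1 replicate 3 it was -0.95, and without splenic cDC2 replicate 3 the tissue difference in cDC2 was -1.0, both just inside 2-fold and no longer called.

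Among the surface tetraspanins, Cd9 (ENSMUSG00000030342, chromosome 6 from 125460266 to 125494791) fell upon maturation in both subsets. It was 5824, 5969, 6510 and 5696 in immature and 1777, 1688 and 2229 in mature thymic cDC1. In thymic cDC2 it was 6935, 7497 and 7693 in immature and 1238, 1304 and 980 in mature cells. The ratios of means were 3.16 in cDC1 (log2 fold change -1.67, standard error 0.13, limma adjusted p = 1.01e-09) and 6.28 in cDC2 (log2 fold change -2.66, standard error 0.14, limma adjusted p = 9.16e-12), and no samples overlapped.

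The tissues differed in Cd9 in cDC2. Splenic cDC2 had 2384, 2006 and 1848, all below the immature thymic cDC2 samples (log2 fold change 1.83, standard error 0.14, limma adjusted p = 1.15e-08). Splenic cDC1 had 5286, 4605, 4504 and 4725, and the tissue difference in cDC1 was 0.33 on the log2 scale, with a 95% interval from 0.07 to 0.58. The tissue effects differed by 1.50 (standard error 0.19, limma adjusted p = 3.01e-05). Cd9 accordingly separated the subsets in the spleen, where cDC2 were lower (log2 fold change -1.21, limma adjusted p = 5.47e-07), whereas in the immature thymus the difference was 0.30 with a 95% interval from 0.02 to 0.57. The maturation effects differed by -0.99 (limma adjusted p = 0.00173), just inside 2-fold, and by -1.01 with DESeq2. The copy Cd9-ps had at most 16 reads in a sample.

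Cd81 (ENSMUSG00000037706, chromosome 7 from 143052739 to 143067934) was the only one of the 10 tetraspanins called between the subsets in all 3 comparisons. In cDC1 it was 5461, 5223, 6981 and 5028 in the spleen, 2669, 2737, 3249 and 2397 in the immature thymus and 9591, 9977 and 11049 in the mature thymus. In cDC2 it was 929, 780 and 1232 in the spleen, 360, 221 and 307 in the immature thymus and 1716, 1991 and 988 in the mature thymus. Every cDC2 sample was below every cDC1 sample.

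Between cDC2 and cDC1 the log2 fold changes of Cd81 were -2.54 in the spleen, -3.24 in the immature thymus and -2.76 in the mature thymus, with standard errors between 0.22 and 0.23 and limma adjusted p values of 1.50e-08, 5.99e-10 and 5.26e-08. In both subsets Cd81 was lower in the thymus than in the spleen and higher after maturation. The tissue differences were -1.03 in cDC1 (limma adjusted p = 0.00102) and -1.73 in cDC2 (limma adjusted p = 1.51e-05). The maturation effects were 1.89 (limma adjusted p = 2.21e-07) and 2.37 (limma adjusted p = 4.96e-08). Neither effect was shown to differ between the subsets, with differences of -0.69 (95% interval from -1.33 to -0.06) for tissue and 0.48 (95% interval from -0.18 to 1.14) for maturation. The tissue difference in cDC1 was close to 2-fold and fell just inside it without splenic replicate 3 (-0.93) or thymic replicate 4 (-0.97).

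Cd82 (ENSMUSG00000027215, chromosome 2 from 93419111 to 93463140) was among the more even tetraspanins, with group means between 2901 and 6838. It was 6345, 7149, 8359 and 5500 in immature and 3475, 2277 and 2951 in mature thymic cDC1, a fall without overlap (log2 fold change -1.24, standard error 0.22, limma adjusted p = 7.54e-05). In cDC2 of the thymus the values of 3192 to 4561 in immature and 2096 to 3703 in mature cells overlapped, and the log2 difference of -0.36 had a 95% interval from -0.86 to 0.14. The other comparisons of Cd82 stayed below 2-fold.

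Cd151 (ENSMUSG00000025510, chromosome 7 from 141467392 to 141471473), which binds laminin-binding integrins, had few transcripts in all groups, with 20 to 335 reads per sample. It was 73.2, 40.0 and 32.6 in splenic and 172, 158 and 137 in immature thymic cDC2, a difference without overlap (log2 fold change 1.74, standard error 0.50, limma adjusted p = 0.0159). For cDC1 of the thymus it was 68.4, 96.6, 109 and 41.4 in immature and 210, 72.8 and 268 in mature cells, which overlapped (log2 fold change 1.10, standard error 0.46, limma adjusted p = 0.0474). This call was lost without mature replicate 1 (0.91), mature replicate 3 (0.73) or immature replicate 4 (0.83), and also when thymic cDC1 alone were fitted (limma adjusted p = 0.123).

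Tspan33 (ENSMUSG00000001763, chromosome 6 from 29694222 to 29718559), the ADAM10-binding member, rose upon maturation in cDC2. It was 1288, 1131 and 1774 in immature and 4939, 4540 and 4037 in mature thymic cDC2 (log2 fold change 1.71, standard error 0.21, limma adjusted p = 1.19e-06). For cDC1 of the thymus it was 3193, 3065, 3539 and 3142 in immature and 3958, 2861 and 4472 in mature cells. These values overlapped, and the log2 difference of 0.20 had a 95% interval from -0.22 to 0.61. The maturation effects differed by 1.51 (standard error 0.29, limma adjusted p = 0.00142).

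Before maturation, Tspan33 was lower in cDC2 than in cDC1 of the thymus (log2 fold change -1.23, limma adjusted p = 6.85e-05). In the spleen, with 2197 to 3352 in cDC1 and 1034 to 1784 in cDC2, the difference of -0.90 was below 2-fold although the samples did not overlap. Mature subsets differed by 0.28, with a 95% interval from -0.16 to 0.72. The tissues were not called different, with log2 values of 0.34 in cDC1 (95% interval from -0.04 to 0.72) and 0.00 in cDC2 (95% interval from -0.44 to 0.44).

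Tspan13 (ENSMUSG00000020577, chromosome 12 from 36014557 to 36042500) was set apart by tissue in both subsets. Splenic counts were 10624, 8963, 8101 and 9076 in cDC1 and 8123, 9693 and 8780 in cDC2. Immature thymic counts were 2816, 2723, 2426 and 3386 in cDC1 and 2722, 3027 and 2377 in cDC2. Every splenic sample was above every thymic sample, with log2 fold changes of thymus over spleen of -1.70 in cDC1 (standard error 0.13, limma adjusted p = 1.49e-08) and -1.71 in cDC2 (standard error 0.15, limma adjusted p = 8.78e-08). The tissue effects differed by -0.01, with a 95% interval from -0.44 to 0.41.

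Immature subsets had nearly the same levels of Tspan13, with log2 differences of -0.05 in the spleen (95% interval from -0.35 to 0.25) and -0.06 in the thymus (95% interval from -0.36 to 0.24). In mature thymic cells it was 1421, 1723 and 1519 in cDC1 and 2298, 2591 and 3107 in cDC2. The maturation difference was -0.86 in cDC1 (limma adjusted p = 2.89e-05), below 2-fold, and -0.03 in cDC2, with a 95% interval from -0.35 to 0.29.

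To compare levels between genes, the values were divided by the length of the exons of each gene in kb. The exons were joined over all annotated transcripts of the gene. This length can exceed that of the expressed transcript, so the order and shares of the genes depend on it. Before division, the means in immature thymic cDC1 were 6846 for Cd53, 6838 for Cd82 and 6000 for Cd9. In the immature groups Cd53 was first, with 4628 ± 1490 (SD, n = 4) per kb in splenic cDC1, 3930 ± 560 (SD, n = 4) in thymic cDC1, 5641 ± 1338 (SD, n = 3) in splenic cDC2 and 5864 ± 658 (SD, n = 3) in thymic cDC2. The second place was held by Tspan13 in the spleen, at 3715 ± 424 (SD, n = 4) for cDC1 and 3583 ± 319 (SD, n = 3) for cDC2, and by Cd9 in the immature thymus, at 2935 ± 175 (SD, n = 4) for cDC1 and 3608 ± 192 (SD, n = 3) for cDC2. In splenic cDC1 the mean of Tspan13 was within 1 SD of that of Cd53, and before division it was higher, at 9191 against 8061.

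In mature cells the order was different. Cd63 was first with 5307 ± 593 (SD, n = 3) per kb in cDC1 and 4449 ± 489 (SD, n = 3) in cDC2, followed by Tspan3 with 3925 ± 695 (SD, n = 3) and 4141 ± 307 (SD, n = 3). In mature cDC2 these ranges of mean ± SD overlapped, and before division by length Tspan3 (17698) was above Cd63 (16381). Cd81 followed in mature cDC1 with 3545 ± 262 (SD, n = 3), within the spread of Tspan3, whereas in mature cDC2 it took place 7 with 544 ± 180 (SD, n = 3). Cd53 was last in mature cDC1, at 65.2 ± 48.5 (SD, n = 3), next to Cd151 at 67.0 ± 36.6 (SD, n = 3).

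The 10 genes together had between 12827 and 16577 normalized read counts per kb as group means. This sum was 12579 to 13123 in immature and 15131 to 18673 in mature thymic cDC1, without overlap, whereas it overlapped in thymic cDC2, with 12214 to 13907 and 12278 to 14586. Cd63 made up 0.0195% of this sum in splenic cDC1, 0.124% in immature thymic cDC1 and 32.0% in mature thymic cDC1. In cDC2 its share was 0.287% in the spleen, 2.51% in the immature and 32.4% in the mature thymus. The share of Cd53 went from 30.6% to 0.393% upon maturation in thymic cDC1 and from 44.1% to 3.52% in thymic cDC2.

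**Figure D3:**
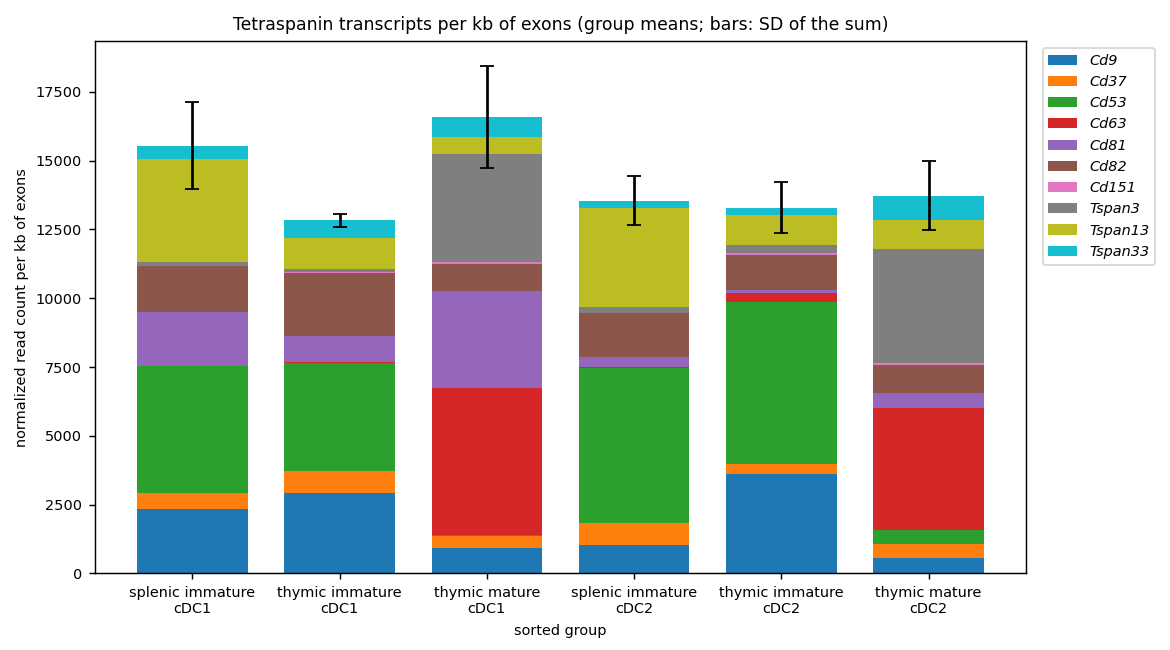
Normalized read counts per kb of exons of the 10 tetraspanins, stacked as group means for the 6 sorted groups, with bars for the SD of the sum over samples. Cd63 and Tspan3 take up most of the bars of both mature groups, where Cd53 is barely visible, and the sums stay between 12827 and 16577.

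Of the 21 other tetraspanin genes, 11 passed the filter and 8 of these had a group mean of at least 100. Upon maturation, 2 of the 11 were higher and 5 lower in cDC1, and 1 was higher and 4 were lower in cDC2. The shares of all genes were 21.3% and 24.5% in cDC1 and 18.6% and 17% in cDC2. Rom1, known from photoreceptor discs, rose from a mean of 38.1 to 405 in cDC1 (log2 fold change 3.54, limma adjusted p = 1.46e-07) and from 48.2 to 297 in cDC2 (log2 fold change 2.66, limma adjusted p = 2.49e-05). The ADAM10-binding Tspan17 rose in cDC1, from 164 to 402 (log2 fold change 1.32, limma adjusted p = 0.00184). In cDC2 it was 168 in immature and 333 in mature cells.

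Tspan9 fell steeply, from normalized read counts of 742 to 1074 in immature thymic cDC1 to 0, 9.22 and 40.8 in mature thymic cDC1 (log2 fold change -6.88, limma adjusted p = 4.91e-08), and from a mean of 404 to 47.2 in cDC2 (log2 fold change -3.11, limma adjusted p = 0.00191). Tspan2 fell as well, from 347 to 119 in cDC1 (log2 fold change -1.58) and from 528 to 134 in cDC2 (log2 fold change -1.97). The ADAM10-binding Tspan14 fell from 698 to 334 in cDC1 (log2 fold change -1.15) and from 1521 to 552 in cDC2 (log2 fold change -1.49). Tspan4 fell in cDC1, from 79.4 to 4.80 (log2 fold change -4.36, limma adjusted p = 2.54e-06), and had 52.4 and 36.7 in cDC2. Tspan5, another ADAM10 partner, fell in cDC1 from 18.9 to 6.03, where the samples overlapped, and had 166 and 80.5 in cDC2. Tspan31 had means between 915 and 1347 in all groups and was called in no comparison, but 29.2% of its exon length overlaps Cdk4 on the other strand.

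**Figure D4:**
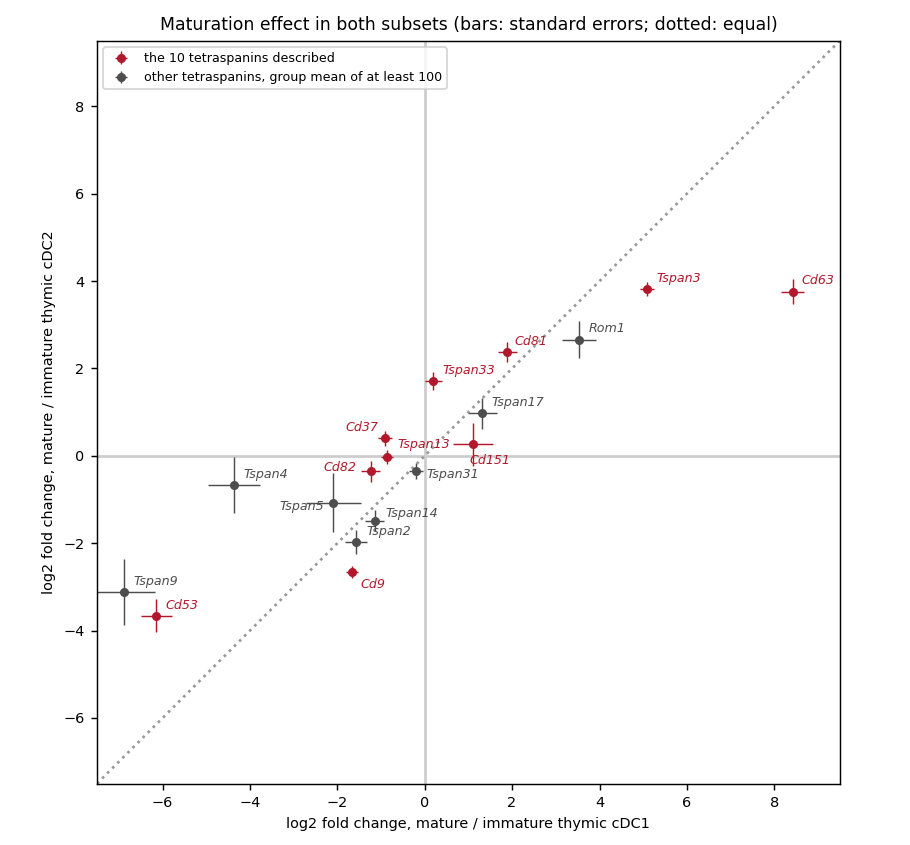
Log2 fold change of mature over immature thymic cells in cDC1 (x axis) and cDC2 (y axis), with standard errors, for the 10 tetraspanins (red) and 8 others (grey) and a dotted line of equal change. Cd63 lies right of the line at 8.42 and 3.76, and Cd53 and Tspan9 lie above it at the lower left.

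Between tissues, 1 other tetraspanin was called in cDC1, higher in the thymus, and 2 were higher and 1 lower in thymic cDC2. The shares of all genes were 4.26% higher and 4.52% lower in cDC1 and 8.3% and 5.87% in cDC2. The 1 other tetraspanin that was lower in thymic cDC2 was Tspan2, with means of 1433 in splenic and 528 in thymic cDC2 (log2 fold change -1.40, limma adjusted p = 0.00102). Between subsets, 4 were called in the spleen, 4 in the immature and 3 in the mature thymus, each of them higher in cDC2. Over all genes, too, more were higher than lower in cDC2, with 9.93% against 6.7%, 11% against 5.42% and 14.6% against 4.36%. Tspan5 was higher in cDC2 in all of these comparisons, with means of 178 against 41.9 in the spleen, 166 against 18.9 in the immature thymus and 80.5 against 6.03 in the mature thymus. Tspan14 was higher in cDC2 of the spleen (log2 fold change 1.09) and of the immature thymus (log2 fold change 1.12), the reverse of Tspan33, which binds the same protease.

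**Figure D5:**
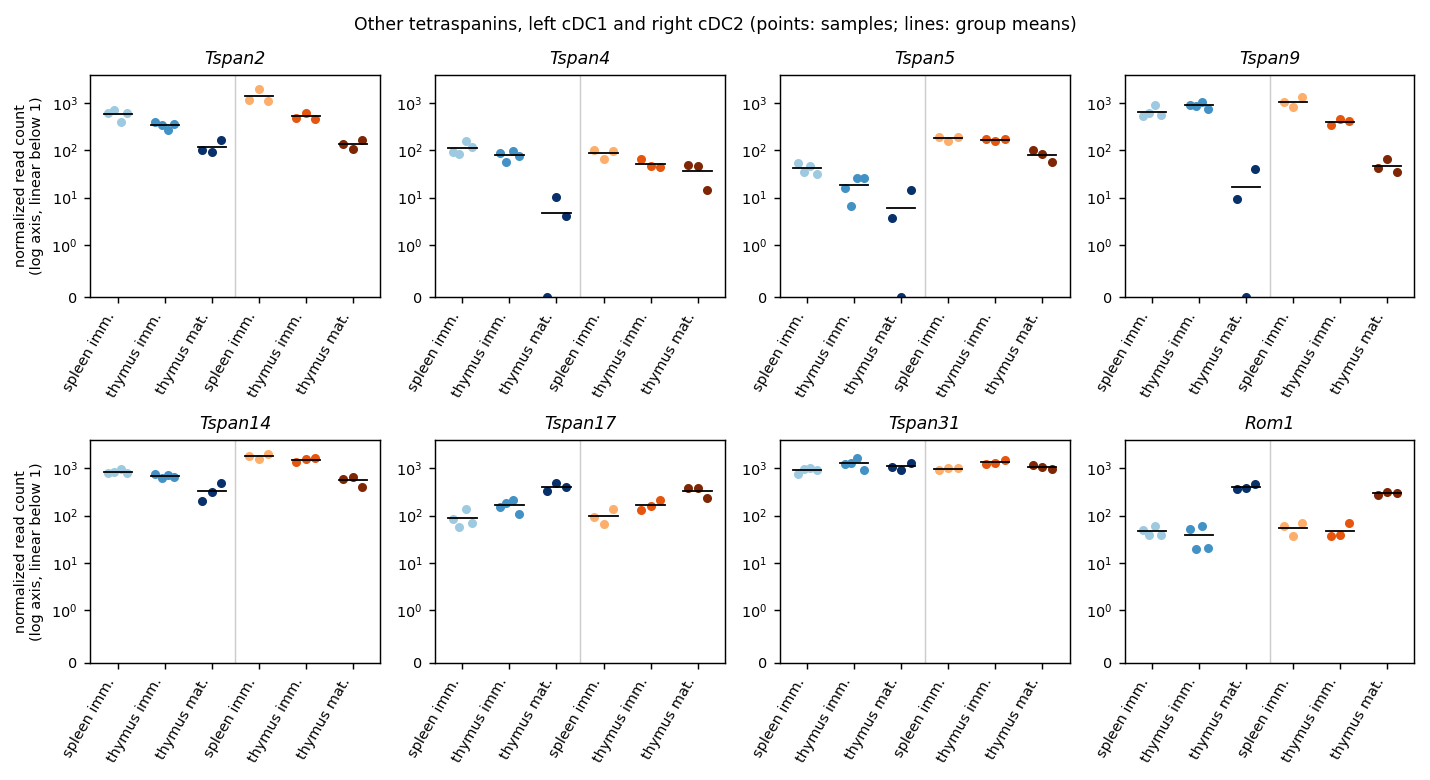
Normalized read count of 8 other tetraspanins in the 20 samples (points) on a log axis that is linear below 1, with lines at the group means, cDC1 left and cDC2 right. Rom1 and Tspan17 have their highest samples in the mature groups, and Tspan9, Tspan4 and Tspan5 reach 0 in 1 sample of mature thymic cDC1.

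The protease ADAM10 itself had means of 2039 in immature and 3541 in mature thymic cDC1 and of 3022 and 5137 in thymic cDC2. The log2 differences upon maturation of 0.80 (limma adjusted p = 0.00186) and 0.75 (limma adjusted p = 0.00667) were below 2-fold. Of the 4 tested genes of the 6 in the TspanC8 subfamily, 1 was higher and 2 were lower in mature cDC1, and 1 was higher and 1 lower in mature cDC2. Over all genes, 21.3% were higher and 24.5% lower in cDC1, and 18.6% and 17% in cDC2.

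Of 19 proteins known to bind tetraspanins, 6 were higher and 5 lower in mature thymic cDC1, and 6 were higher and 7 lower in mature thymic cDC2, beside 21.3% and 24.5% of all genes in cDC1 and 18.6% and 17% in cDC2. Their median log2 fold changes were 0.69 and -0.83. Igsf3, an immunoglobulin superfamily partner, had the largest rise in both, from 10.5 to 425 in cDC1 (log2 fold change 5.28, limma adjusted p = 3.29e-09) and from 26.4 to 1671 in cDC2 (log2 fold change 5.93, limma adjusted p = 3.63e-09). H2-Ab1, the beta chain of the MHC class II molecule that associates with tetraspanins, fell from 210979 to 34109 in cDC1 (log2 fold change -2.85, limma adjusted p = 4.52e-06). The adhesion molecule Epcam fell from 3516 to 385 in cDC2 (log2 fold change -3.19, limma adjusted p = 1.73e-08). The complement receptor gene Cr2 had 0 reads in all immature thymic samples, 35.5 to 53.4 in mature cDC2 and 0 to 18.4 in mature cDC1.

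The integrin beta 1 chain Itgb1, which pairs with the alpha chains bound by CD151 and CD9, rose from 8521 to 27562 in cDC1 (log2 fold change 1.70) and from 8915 to 23422 in cDC2 (log2 fold change 1.38). It is named, like Itga3, after its values were seen. Between tissues, 2 partners were higher and 5 lower in thymic cDC1, and 3 higher and 4 lower in thymic cDC2, beside 4.26% and 4.52% of all genes in cDC1 and 8.3% and 5.87% in cDC2. Between subsets, 6 were higher and 2 lower in cDC2 of the spleen, 7 and 2 in the immature thymus and 7 and 1 in the mature thymus, beside 9.93% and 6.7%, 11% and 5.42%, and 14.6% and 4.36% of all genes. Itga3 was lower in cDC2 in all of these, with means of 442 and 55.4 in the spleen.

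Of 9 genes that sort proteins into vesicles 7 were tested, and upon maturation 1 was called in each subset, in both cases Sdcbp (syntenin, an adaptor of exosome formation that binds CD63), which, like Rab27a, is named after its values were seen. Sdcbp fell from 7666 to 2981 in cDC1 (log2 fold change -1.37, limma adjusted p = 9.57e-08) and from 8930 to 3315 in cDC2 (log2 fold change -1.43, limma adjusted p = 2.54e-07). Over all genes, 21.3% were higher and 24.5% lower in mature cDC1, and 18.6% and 17% in mature cDC2. At an adjusted p below 0.1 without the fold threshold, 5 and 3 of the 7 passed, a setting for which no share of all genes is given here. Rab27a, which acts in vesicle release, was higher in mature cDC2 than in mature cDC1, with means of 1495 and 530 (log2 fold change 1.54, limma adjusted p = 1.64e-05).

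Markers of other cells are given beside these results, as summed levels per list. The 6 thymocyte markers summed to 130 to 214 in immature and 1140 to 1866 in mature thymic cDC1, and to 149 to 237 in immature and 614 to 922 in mature thymic cDC2, and Ptcra had at most 3 reads in any of these samples. The 5 thymic epithelium markers summed to 575 to 705 in immature and 254 to 525 in mature thymic cDC1, and to 3487 to 3816 and 677 to 1010 in thymic cDC2, where Epcam made up 3391 to 3715 of the immature sum. Other genes of that list had higher means in mature than in immature cells, with 98.6 and 22.1 for Krt5 and 94.4 and 41.4 for Krt8 in cDC1, and with 175 and 32.5 for Krt5, 180 and 42.1 for Krt8 and 108 and 13.0 for Psmb11 in cDC2. In cDC1, Psmb11 had 7.01 in mature and 10.4 in immature cells. Foxn1 had 5.80 and 1.28 in cDC1 and 14.25 and 5.35 in cDC2. Epcam had 158 in mature and 581 in immature cDC1 and 385 and 3516 in cDC2. The thymocyte sums, Krt5 and Krt8 thus moved in the direction of Cd63 and Tspan3 in both subsets, whereas the epithelium sums and Epcam moved the other way.

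The summed pDC markers in both subsets and the summed endothelium markers in cDC2 were lower in mature cells, as were Cd53 and Cd9, although single markers differed. The 5 pDC markers summed to 1219 to 1688 in immature and 289 to 406 in mature thymic cDC1, and to 1399 to 1878 and 395 to 646 in thymic cDC2. Siglech and Ccr9 had lower means in mature cells, with 8.00 against 414 and 220 against 933 in cDC1 and 38.2 against 888 and 283 against 632 in cDC2. Ly6d had higher means in mature cells, with 27.0 against 12.3 in cDC1 and 27.3 against 9.56 in cDC2. Pacsin1 had 95.8 against 104 in cDC1 and 170.5 against 80.8 in cDC2. The 3 endothelium markers summed to 4564 to 5074 in immature and 2249 to 2408 in mature thymic cDC2, and to 688 to 949 and 827 to 1968 in thymic cDC1. In cDC2, Pecam1 had means of 2539 in immature and 85.7 in mature cells and Cdh5 28.1 and 5.64, whereas Kdr had 2255 and 2210. In thymic cDC1, Pecam1 had 298 in immature and 44.0 in mature cells and Cdh5 41.0 and 2.21, whereas Kdr had 510 and 1164. The 5 B cell markers, like Tspan13, were higher in the spleen, with 566 to 984 in splenic and 106 to 139 in immature thymic cDC1 and with 600 to 637 and 169 to 240 in cDC2, although B220+ cells were gated out. The 6 macrophage markers summed to 227 to 346 in immature and 78.0 to 383 in mature thymic cDC1, and to 5969 to 8653 and 1760 to 11855 in thymic cDC2, with 1 mature cDC2 sample far below the others. Platelet markers, which matter because platelets carry CD9 and CD63, summed to at most 81.3 in any sample, and Gp9 and Gp1bb had at most 3 reads in every sample. The part of the thymocyte, epithelium, pDC, endothelium, B cell and macrophage markers in the tetraspanin levels was not tested.

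For each tetraspanin, the tested genes with the most similar pattern were sought by the Pearson correlation of log2(value + 1) over the 20 samples, among 10223 genes with a mean of at least 100. These samples share 6 groups, so that the coefficients mainly describe group means, and no p is given. The most alike genes were Glipr2 (0.990) and Atp2b4 (0.989) for Cd63, Rcsd1 (0.997) and Slc4a8 (0.996) for Tspan3 and Pola1 (0.991) and Ipo9 (0.988) for Cd53. For Cd9 they were Oxct1 (0.966) and Fcgrt (0.964), for Cd81 Traf3ip2 (0.965) and Itga3 (0.955), and for Cd82 Bri3bp (0.932) and Mfsd10 (0.926). For Tspan13 they were Tmem131 (0.944) and Lphn3 (0.936), for Tspan33 Plekhj1 (0.933) and Slc25a38 (0.929), for Cd151 Lrrc42 (0.864) and Dscr3 (0.857), and for Cd37 Tbc1d10c (0.827) and Rapgef1 (0.813). The coefficients were thus closest to 1 for Tspan3 and lowest for Cd37. Among the tetraspanins themselves, Cd63 and Tspan3 had the highest coefficient (0.930) and Tspan3 and Cd53 the lowest (-0.876).

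In the genome, Cd151 and Tspan4 lie 3766 bases apart on chromosome 7. These neighbours had different patterns, since Tspan4 fell from 79.4 to 4.80 upon maturation in thymic cDC1, where Cd151 had 78.9 and 184. Exons of Cd9 overlap those of Gm26728 by 218 bases, of Cd81 those of R74862 by 104, of Cd151 those of Gm10575 by 193 and of Cd37 those of Tead2 by 13. The strand setting of the counting is not given in the sources used here, and reads in these overlaps may be assigned to either gene.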

How the data were processed

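The measurement was RNA-seq of polyadenylated RNA (TruSeq Stranded mRNA kit, paired HiSeq reads) in 21 libraries of sorted cDCs. Per the methods of the authors, Cutadapt trimmed the reads, STAR 2.6 placed them on mm10, and HTSeq-count gave the reads of each Ensembl gene. The Ensembl release and strand setting are not given in the sources used here. The deposited values are a signal, the read count of a gene divided by the DESeq2 (1.24.0) size factor of its library. Division by the smallest value of a library gave whole numbers (100% within 0.001), so that reads could be recovered.

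The log2 of the deposited value plus 1 was fitted with limma (3.58.1, R 4.3.3, lmFit and eBayes with trend) with 1 mean for each of 6 groups in 20 samples, over 14970 genes that reached 10 in 3 or more samples. Calls needed a Benjamini-Hochberg adjusted p below 0.1 over all these genes and more than 2-fold change. Splenic cDC1 replicates 4 and 5 were averaged. Thymic immature cDC1 replicates 3 and 4 also shared labels, but their chi-square over its degrees of freedom was 92.8, and they were kept apart. Alternatives were edgeR (4.0.16) and DESeq2 (1.42.0) on recovered reads, other pseudocounts, filters, thresholds, scalings and groups, sequencing lane, a replicate block and the omission of each sample. The fits were tested on simulated data. Depth gives counting error only.

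All 10 tetraspanins were described. Of 21 other tetraspanins those with a group mean of at least 100 were named, of the partners the 3 with the largest change among those called upon maturation in each subset, and for each tetraspanin the 2 most alike genes. The members and all lists were chosen with earlier results of these data known. Exon lengths and overlaps came from GENCODE M21, where 37607 of 37734 gene identifiers were found, and promoters from RefSeq for GRCm38, with all 10 genes matched. Protein sequences were not used here. The values of 1 binding partner are not reported here.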

Additional observations from a re-analysis of the deposited data

Results flagged for a closer look

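The maturation effect in thymic cells differed between cDC2 and cDC1 (limma interaction term, on the log2 scale) for 5 of the 10 tetraspanins. The difference of cDC2 minus cDC1 was -4.66 for Cd63, -1.26 for Tspan3, 2.48 for Cd53, 1.51 for Tspan33 and 1.31 for Cd37. Of the 8 other tetraspanins named, it was 3.77 for Tspan9 (limma adjusted p = 0.0191) and 3.69 for Tspan4 (limma adjusted p = 0.00750), both with 0 reads in 1 sample of mature thymic cDC1. The tissue effect in immature cells differed for Cd9, by 1.50, and for Cd37, by -1.59.

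Splenic cDC1 replicate 3 had 6659 for Cd82, where the other 3 samples of the group were between 4324 and 4476, a gap beyond the critical value of Dixon. It was the only such case in 36 groups of 4 samples checked over 18 tetraspanins, where chance flags about 1 in 20.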

How the results depend on the processing

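Depth limits Cd63 in splenic cDC1, Cd53 in mature thymic cDC1 and Cd151, which rest on few reads. The number of the 10 tetraspanins called moved by more than 1.5 times only without the fold threshold, to 5 between tissues in cDC1, 6 between subsets in the spleen, 4 between mature subsets and 8 for the difference in maturation effect. No share of all genes is given here for that setting, so these counts cannot be set against one. With each sample left out in turn the counts were 6 to 7 and 6 to 6 for maturation in cDC1 and cDC2, 2 to 3 and 5 to 6 for tissue, 3 to 4, 5 to 5 and 2 to 2 for subset in spleen, immature and mature thymus, 5 to 7 for the difference in maturation and 2 to 2 for that in tissue effect. Among single genes 8 of the values under other settings changed sign, none of a called change. They were Cd53 between tissues in cDC1 in lane 8 (0.10), Tspan33 between tissues in cDC2 with edgeR (-0.0036), DESeq2 (-0.018), lane as a covariate (-0.089) and lane 8 (-0.33), Cd82 between splenic subsets with lane as a covariate (0.0069) and in lane 8 (0.10), and Tspan13 there in lane 8 (0.034). With a sample left out, 10 uncalled values changed sign: Tspan13 upon maturation in cDC2 (-0.14 to 0.074), between splenic subsets (-0.12 to 0.023), between immature thymic subsets (-0.15 to 0.027) and in the difference of tissue effects (-0.098 to 0.076), Cd151 between tissues in cDC1 (-0.032 to 0.56) and between mature subsets (-0.35 to 0.59), Cd82 between splenic (-0.19 to 0.15) and mature subsets (-0.11 to 0.30), and Cd53 (-0.12 to 0.24) and Tspan33 (-0.20 to 0.19) between tissues in cDC2. The cause was not tested. The replicate numbers were not shown to pair the samples. In the spleen, correlations ran from -0.0473 to 0.453 for same-numbered samples and from -0.489 to 0.341 for differently numbered ones. In the immature thymus these ranges were -0.101 to 0.207 and -0.380 to 0.261. Mature samples were not part of this check. With a replicate block on the numbers, 3 tetraspanins were called between splenic and 5 between immature thymic subsets, as without it.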

Other observations

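Tetraspanins with few transcripts, named after their values were seen, also differed between groups. The uroplakin gene Upk1b had a mean of 29.8 (18.2 at the lowest) in immature thymic cDC2 and at most 3.75 in the mean of any other group, with a log2 fold change of -4.59 upon maturation (limma adjusted p = 2.80e-06) and of 2.67 between thymic and splenic cDC2 (limma adjusted p = 0.00314). Tspan32, a leukocyte tetraspanin, had a mean of 92.8 in splenic cDC2 and 2.80 in splenic cDC1 (log2 fold change 4.88, limma adjusted p = 1.74e-05). It rose from 2.80 to 12.8 between splenic and thymic cDC1 (log2 fold change 1.81, limma adjusted p = 0.0761). Tspan7 was the remaining one higher in thymic than in splenic cDC2, with means of 13.1 and 0.610 (log2 fold change 2.89, limma adjusted p = 0.0587).

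The binding partners include the MHC class II chain genes H2-Aa, H2-Ab1 and H2-Eb1 and the invariant chain gene Cd74. All 4 were lower in mature than in immature thymic cDC1, with log2 fold changes of -1.12, -2.85, -1.14 and -1.23. In cDC2 only H2-Ab1 of these 4 passed both thresholds (-1.57, limma adjusted p = 0.00545).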
